A study of Mus musculus with 2 samples.

Results

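The genes described here are the lysosomal proteases named cathepsins, the subunits of the proton pump that acidifies lysosomes (the vacuolar ATPase, V-ATPase) and the lysosome membrane proteins LAMP1 and LAMP2. They were chosen by name, as every row of the gene table whose symbol begins with Atp6v0 or Atp6v1, is Cts plus a single letter, or is Lamp1 or Lamp2. Ctsk and Atp6v0d2 were left out. This gave 41 of 32285 genes, namely 17 cathepsins, 22 genes with the name of a pump subunit and 2 LAMPs. Among the 22, Atp6v1fnb is named only as the neighbour of Atp6v1f and is not a known subunit; it stayed under 5 CPM in each cell type described and entered no ratio. Of the 41 genes, 26 reached 5 CPM (UMIs of the gene per 1000000 UMIs, a UMI being a captured transcript) in at least 1 library, 15 stayed under 5 CPM in both, and 4 of those 15 had no count at all.

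The series title names inhibition of PHGDH in tumour cells and the epigenetic programs of macrophages as its subjects. WQ-2101, the compound given, is known as an inhibitor of PHGDH, an enzyme of serine synthesis. CT26 cells, a mouse colorectal carcinoma line, formed subcutaneous tumours in BALB/c mice aged 5 weeks, whose genotype is labelled wild type. The WQ-2101 group received 20 mg/kg of WQ-2101 daily by intraperitoneal injection from a tumour volume of about 100 mm³, and the vehicle group received vehicle; tumours of both groups were collected on day 17. Each group is 1 droplet library of 3′ ends from a whole tumour suspension, freed of red cells and not sorted, and both libraries carry the same batch label. How many animals went into a library is not stated in the labels.

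Cathepsins are made as inactive precursors, reach the lysosome mostly through the mannose 6-phosphate route and become active in its acid interior. The V-ATPase makes that interior acid: its V1 sector in the cytosol splits ATP, and its V0 sector in the membrane carries protons across. In macrophages and dendritic cells the same compartment cuts antigen and the invariant chain of MHC class II, in osteoclasts the pump acidifies the bone surface, and in cytotoxic lymphocytes and neutrophils cathepsin C activates stored serine proteases. Several of these genes are known targets of TFEB and its relatives, transcription factors that bind E-box sequences with the core CACGTG.

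Promoter windows, 250 bases before to 50 after the RefSeq start on GRCm38.p6, were found for 32 of the 41 genes. The windows of 5 genes are shown because their levels separate cell types or libraries below: Ctsl leads in tumour cells, Ctss in macrophages, Ctsd differed between libraries in monocytes, and Atp6v1a and Atp6v0c differed in neutrophils. They are chr13:64370471-64370770 (minus strand) for Ctsl, chr3:95526536-95526835 (plus) for Ctss, chr7:142387778-142388077 (minus) for Ctsd, chr16:44139210-44139509 (minus) for Atp6v1a and chr17:24169629-24169928 (minus) for Atp6v0c. Capitals mark CACGTG, which reads the same on both strands.
Ctsl: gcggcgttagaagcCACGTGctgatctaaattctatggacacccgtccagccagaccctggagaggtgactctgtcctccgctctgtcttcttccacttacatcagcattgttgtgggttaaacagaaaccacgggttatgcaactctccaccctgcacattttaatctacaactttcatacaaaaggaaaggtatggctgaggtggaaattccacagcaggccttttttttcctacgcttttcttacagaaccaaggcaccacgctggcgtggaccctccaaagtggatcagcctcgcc
Ctss: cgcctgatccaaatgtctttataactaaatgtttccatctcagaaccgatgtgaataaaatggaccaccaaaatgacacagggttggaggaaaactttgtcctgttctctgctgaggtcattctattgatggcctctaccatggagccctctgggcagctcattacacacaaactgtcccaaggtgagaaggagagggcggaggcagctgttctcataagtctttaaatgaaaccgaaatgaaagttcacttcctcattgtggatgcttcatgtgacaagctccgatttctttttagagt
Ctsd: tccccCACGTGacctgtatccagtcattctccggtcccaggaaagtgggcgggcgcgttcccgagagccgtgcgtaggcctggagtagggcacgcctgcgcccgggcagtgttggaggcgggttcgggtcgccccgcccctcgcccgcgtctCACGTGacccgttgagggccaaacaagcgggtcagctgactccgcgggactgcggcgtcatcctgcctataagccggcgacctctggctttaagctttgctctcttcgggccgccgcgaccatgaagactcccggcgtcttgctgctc
Atp6v1a: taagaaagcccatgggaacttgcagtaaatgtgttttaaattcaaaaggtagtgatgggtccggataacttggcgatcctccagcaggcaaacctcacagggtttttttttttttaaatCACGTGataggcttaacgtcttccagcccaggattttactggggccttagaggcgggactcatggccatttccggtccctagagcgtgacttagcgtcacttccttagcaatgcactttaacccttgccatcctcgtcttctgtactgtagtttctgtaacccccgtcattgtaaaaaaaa
Atp6v0c: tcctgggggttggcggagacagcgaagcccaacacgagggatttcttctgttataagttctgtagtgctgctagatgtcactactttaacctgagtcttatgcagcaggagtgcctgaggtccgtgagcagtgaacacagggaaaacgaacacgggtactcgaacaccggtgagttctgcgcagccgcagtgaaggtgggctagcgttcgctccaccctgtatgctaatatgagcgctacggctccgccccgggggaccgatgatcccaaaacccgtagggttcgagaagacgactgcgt

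CACGTG was present 2 times in the Ctsd window, once each in those of Ctsl and Atp6v1a, and was not found in those of Ctss and Atp6v0c. Across the set, 9 of the 32 genes with a window held it (28.1%), namely the cathepsins Ctsa, Ctsd, Ctsf and Ctsl, the pump subunits Atp6v0b, Atp6v0d1, Atp6v0e and Atp6v1a, and Lamp1. Of all 27025 genes with a window, 8.09% held it, and of all 32851 windows 7.15% did. A match describes letters in the window and is not a bound site. The RefSeq start lies inside the GENCODE gene by 370 bases for Ctsl, 446 for Atp6v1a, 211 for Ctsd and 24 for Atp6v0c, and at its start for Ctss, so other starts of these genes need not be covered by the windows.

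After filtering, the WQ-2101 library held 17294 cells with a median of 8048 UMIs (unique molecular identifiers) and the vehicle library 13668 cells with a median of 10742.5. Cell types were gated on marker genes outside the set, and 8 types had at least 50 cells in each library. These were tumour cells (7770 in WQ-2101 and 6407 in vehicle), macrophages (3064 and 2682), cells with both macrophage and monocyte markers (264 and 744), monocytes (140 and 267), neutrophils (93 and 213), dendritic cells (69 and 77), T cells (688 and 567) and fibroblasts (53 and 143). Natural killer (NK) cells (40 and 36), osteoclasts (6 and 101), B cells (264 and 9) and endothelial cells (11 and 40) were described only where a library held at least 30. Tumour-gated cells carried Hmga2 at 1241 CPM in WQ-2101 and 1191 CPM in vehicle, whereas the keratin genes Krt8 and Krt18 were under 0.1 CPM in both, so the tumour gate rests on Hmga2 and not on these keratins. Barcodes with both tumour and macrophage markers (801 and 266) and barcodes that met no gate (23.2% of WQ-2101 and 15.4% of vehicle cells) were left out, and 73 barcode sequences occurred in both libraries.

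Levels are UMIs of a gene over all UMIs of the gated cells, in CPM. Such a level, and each fold between cell types, compares shares and not amounts per cell. Tumour cells had a median of 13951 UMIs in WQ-2101 and 16654 in vehicle, against 5860.5 and 7714 in macrophages. A transcript gives a UMI at its 3′ end whatever its length, so levels of different genes were set side by side without a length term. Intervals are exact 95% Poisson intervals that cover counting error only, because 1 library per group leaves no spread between animals and no test of the treatment.

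Cathepsins took a far larger share of the UMIs in macrophages than in tumour cells, and the make-up differed. Summed cathepsins came to 6774 CPM in macrophages and 1652 CPM in tumour cells of the WQ-2101 library, a 4.10-fold difference. In the vehicle library the sums were 6820 CPM in macrophages and 1861 CPM in tumour cells, a 3.66-fold difference. Of the 9 cathepsins at 5 CPM or more, 8 were higher in macrophages than in tumour cells in each library. The exception was Ctsl.

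**Figure D1:**
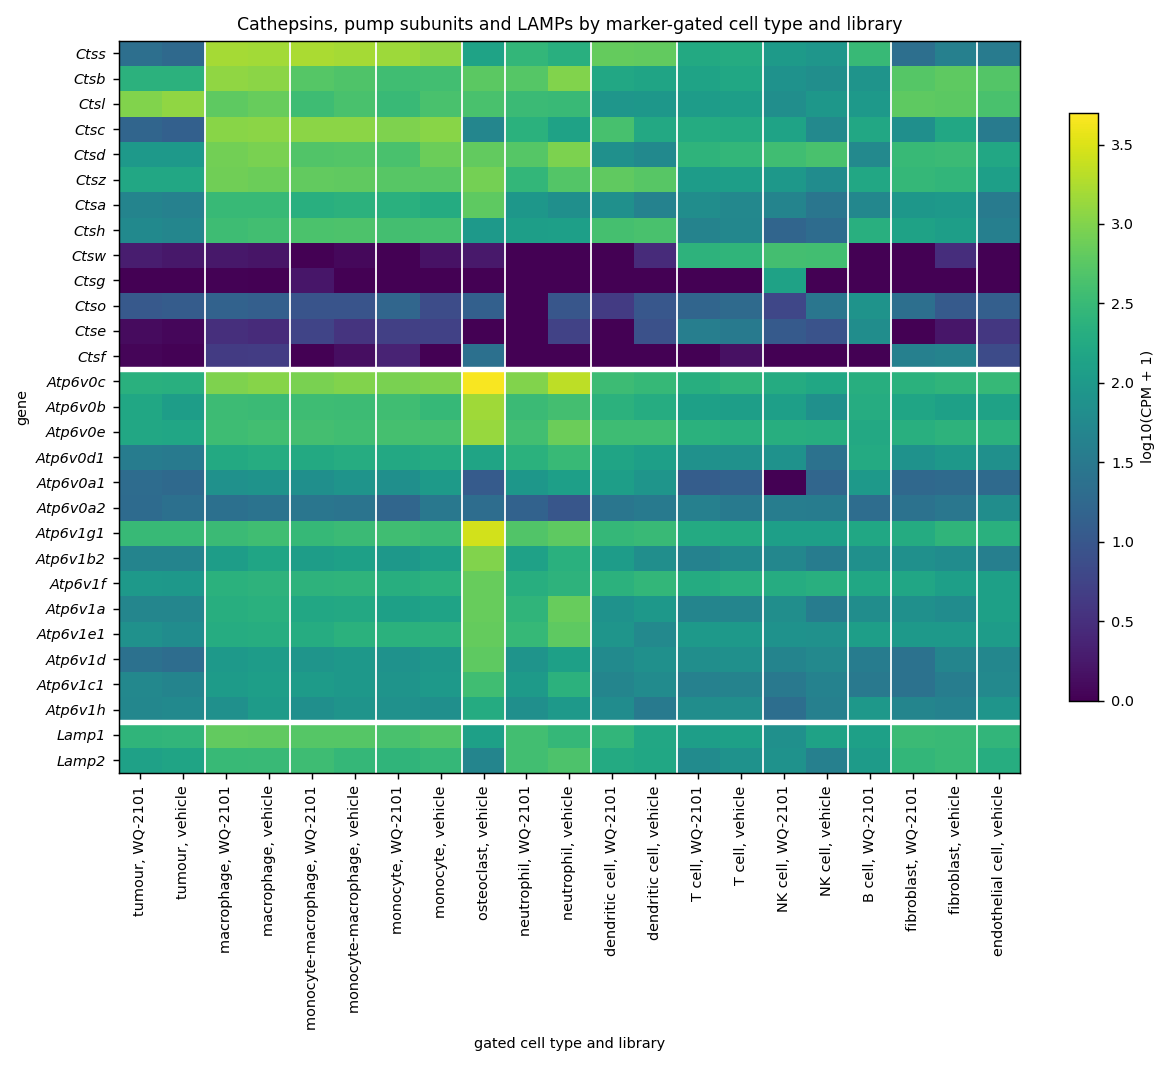
Level of each cathepsin, pump subunit and LAMP that reached 20 CPM in a gated cell type, as log10(CPM + 1) by colour, with genes down the page and cell types with their libraries across. Ctsl is bright in tumour cells, Ctss and Ctsc in macrophages and monocytes, Ctsw in T and NK cells, and nearly the whole pump block in osteoclasts of the vehicle library.

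Ctsl encodes a lysosomal cysteine endopeptidase (chromosome 13, 64359337 to 64370890, minus strand). Tumour cells had 1004 CPM of it in WQ-2101 (998 to 1010) and 1228 CPM in vehicle (1222 to 1234), the highest level among all gated types in both libraries. It made up 60.8% of tumour cathepsin UMIs in WQ-2101 and 66.0% in vehicle. Macrophages had 602 CPM in WQ-2101 and 686 CPM in vehicle, where it was 8.89% and 10.1% of the cathepsin UMIs. With every cell thinned to 1000 UMIs, 59.6% of tumour cells and 42.0% of macrophages had a Ctsl UMI in WQ-2101, and 66.8% and 42.2% in vehicle; thinning left out 4 tumour cells and 89 macrophages in WQ-2101, and 1 and 47 in vehicle. Before thinning, the shares were 98.6% and 83.3% in WQ-2101 and 99.2% and 88.7% in vehicle.

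The other abundant tumour cathepsins were Ctsb, a cysteine protease that also trims dipeptides, at 237 CPM in both libraries, Ctsz, a carboxypeptidase, at 165 and 164 CPM, and Ctsd, the main aspartic protease of lysosomes, at 96.6 and 100 CPM. Ctsh, an aminopeptidase, stood at 56.5 and 49.5 CPM. Ctss and Ctsc were low in tumour cells, at 21.6 and 15.03 CPM in WQ-2101 and 17.1 and 12.5 CPM in vehicle. Beside these, the summed macrophage markers in tumour-gated cells were at 144 CPM in WQ-2101 and 122 CPM in vehicle, against 12661 and 13468 CPM in macrophages. Free RNA was estimated at 10.2% of tumour-cell UMIs in WQ-2101 and 7.70% in vehicle, and its part in the low Ctss and Ctsc levels was not tested.

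Macrophages spread their cathepsins over several genes. Ctss, the endopeptidase that cuts the invariant chain of MHC class II, was their highest member at 1574 CPM in WQ-2101 (1556 to 1592) and 1522 CPM in vehicle (1506 to 1539), followed by Ctsb at 1233 and 1126 CPM and Ctsc at 1096 and 1131 CPM. Over tumour cells, Ctss was 72.8-fold higher in WQ-2101 and 88.8-fold higher in vehicle, and Ctsc, which activates granzymes and neutrophil serine proteases, 72.9-fold and 90.2-fold. These folds rest on the low tumour levels above, and the part of free RNA in them was not tested. Ctsd followed at 803 and 894 CPM and Ctsz at 783 and 750 CPM. Ctsh and Ctsa, a carboxypeptidase that also stabilises lysosomal neuraminidase, lay between 307 and 385 CPM, and Ctso, a little-studied cysteine cathepsin, at 13.3 and 12.2 CPM.

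Monocytes carried the same members with a lower total. Their summed cathepsins were 4701 CPM in WQ-2101 and 5016 CPM in vehicle, and macrophages exceeded them 1.44-fold and 1.36-fold. The per-member ratio of macrophages over monocytes was largest at 3.39 in WQ-2101 and 2.96 in vehicle; for Ctsb, macrophages had 1233 CPM against 363 CPM in monocytes in WQ-2101, and 1126 CPM against 381 CPM in vehicle. Ctss, by contrast, was at 1436 and 1205 CPM in monocytes and at its highest, 1714 and 1563 CPM, in the cells with both marker sets. Ctsc was also highest there, at 1134 and 1145 CPM.

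Dendritic cells had Ctss (665 CPM in WQ-2101, 656 CPM in vehicle) and Ctsz (618 and 540 CPM) as their highest cathepsins. Ctsc followed in WQ-2101 at 414 CPM, against 170 CPM in vehicle, and Ctsh stood at 404 and 437 CPM, while Ctsd was only 71.3 and 55.3 CPM and Ctsl 88.3 and 90.3 CPM. B cells of the WQ-2101 library also put Ctss first (310 CPM) and Ctsh second (212 CPM). Both are cell types that present antigen on MHC class II.

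**Figure D2:**
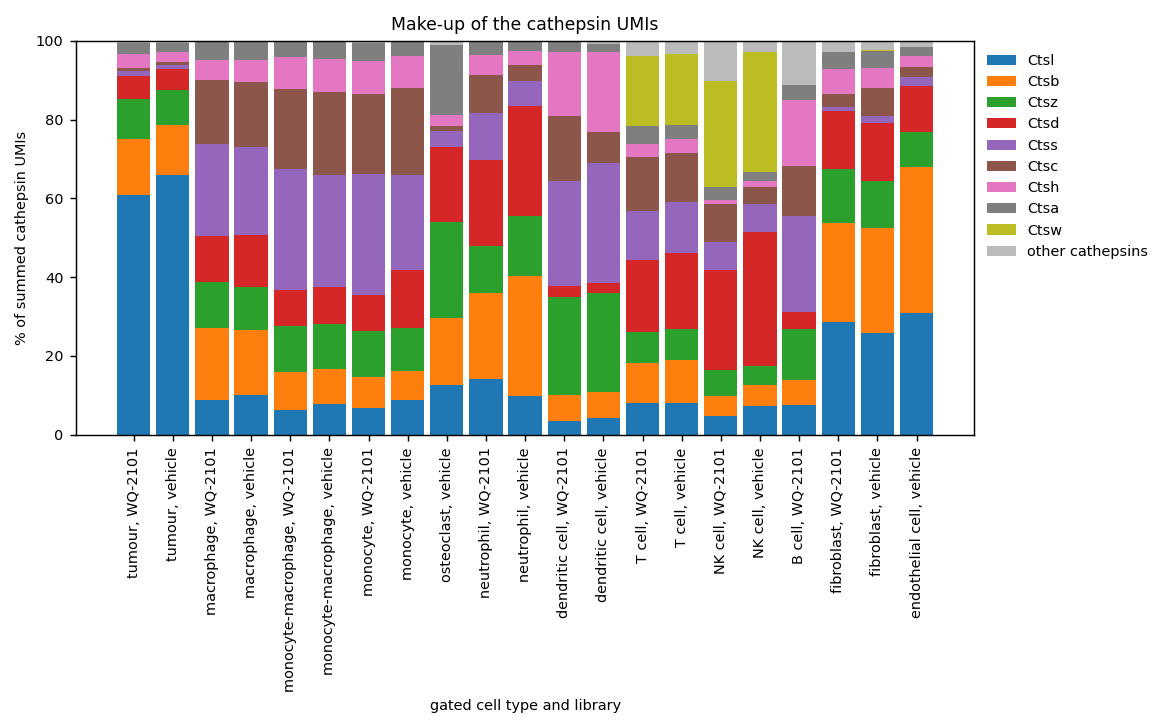
Share of the summed cathepsin UMIs taken by each cathepsin (%), stacked, in each gated cell type and library. Ctsl takes 60.8% in WQ-2101 and 66.0% in vehicle tumour cells, and Ctss leads in macrophages, monocytes and dendritic cells.

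Several cathepsins marked a few cell types. Ctsw, a cysteine cathepsin of cytotoxic lymphocytes, had 388 CPM in NK cells and 247 CPM in T cells of the WQ-2101 library, and 385 and 261 CPM in those of the vehicle library. It was under 1 CPM in tumour cells and macrophages of both libraries. In T cells thinned to 1000 UMIs, 19.9% had a Ctsw UMI in WQ-2101 and 24.0% in vehicle, against 0.180% and 0.0312% of thinned tumour cells; unthinned shares were 42.9% and 51.0% of T cells (median 2543 and 3001 UMIs) and 1.43% and 1.17% of tumour cells (median 13951 and 16654 UMIs). T cells with a Cd8a or Cd8b1 UMI had 259 CPM in WQ-2101 and 300 CPM in vehicle, and those with a Cd4 UMI and neither of these 207 and 100 CPM, from 34 and 24 UMIs.

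Ctse, an endosomal aspartic protease, had 64.9 CPM in B cells of the WQ-2101 library, and T cells had 36.9 CPM in WQ-2101 and 31.6 CPM in vehicle. Its levels in tumour cells were 0.280 CPM in WQ-2101 and 0.163 CPM in vehicle. Ctso was at 77.4 CPM in the same B cells, above its 3.40 to 21.3 CPM in the other WQ-2101 cell types with a UMI. Ctsf, a cysteine cathepsin, was at 40.2 and 44.8 CPM in fibroblasts and 22.4 CPM in vehicle osteoclasts, and under 7 CPM in every other type described. The highest cathepsins of fibroblasts were Ctsl (603 and 582 CPM) and Ctsb (527 and 602 CPM).

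Ctsg, a serine protease of neutrophil and mast cell granules, came from few cells. In WQ-2101 a single NK-gated cell held 26 UMIs and 7 cells outside the gates held 32, and no vehicle cell had any. Neutrophil-gated cells had none in either library; 3 UMIs, the limit that a count of 0 allows, would be 20.6 CPM in the WQ-2101 neutrophils and 13.0 CPM in those of vehicle. The placental-type genes Ctsj, Ctsm, Ctsq and Ctsr, which lie together on chromosome 13 between 61000179 and 61541839, had no UMI in any cell.

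Pump subunits differed less between macrophages and tumour cells than cathepsins did. Summed pump subunits were 3280 CPM in macrophages and 1323 CPM in tumour cells in WQ-2101, a 2.48-fold difference, and 3595 and 1240 CPM in vehicle, a 2.90-fold difference. T cells stood at 1422 and 1486 CPM and dendritic cells at 2180 and 2056 CPM. Osteoclasts of the vehicle library had 14615 CPM (14404 to 14828), 4.06-fold the macrophage level and 11.8-fold the tumour level, while their summed cathepsins (3438 CPM) were 0.504-fold and their LAMPs (171 CPM) 0.181-fold those of macrophages.

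**Figure D3:**
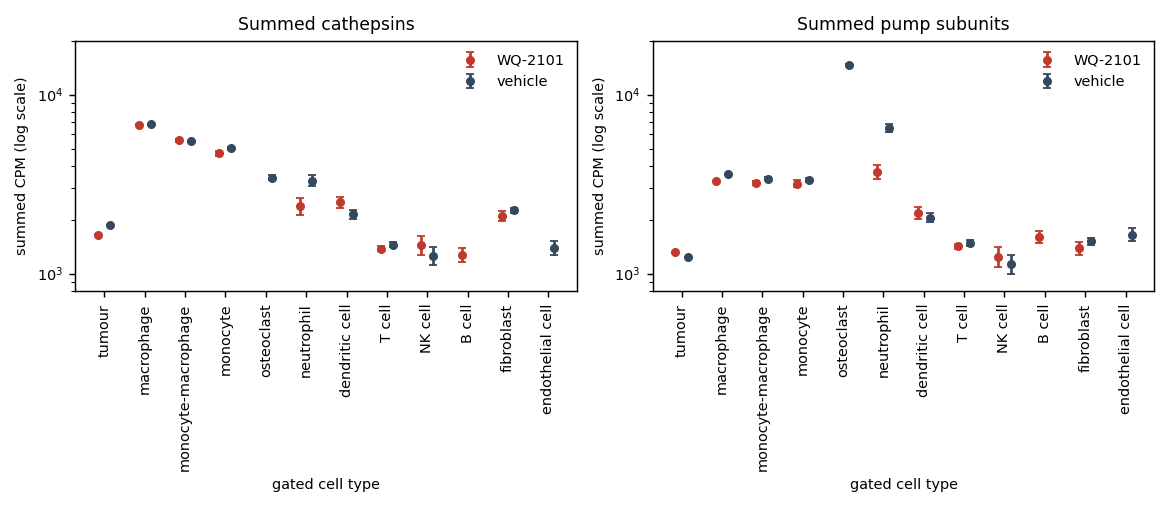
Summed CPM of cathepsins (left) and pump subunits (right), on log axes, by gated cell type; points are libraries, WQ-2101 left of vehicle, with exact 95% Poisson intervals. Macrophages lead the cathepsins at 6774 CPM in WQ-2101 and 6820 CPM in vehicle, and vehicle osteoclasts lead the pump at 14615 CPM.

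In the V0 sector, Atp6v0c makes the rotating ring that carries protons (chromosome 17, 24163866 to 24169702, minus strand). It was the highest pump subunit of macrophages, at 949 CPM in WQ-2101 (935 to 963) and 1077 CPM in vehicle (1063 to 1091), and had 222 and 216 CPM in tumour cells. Vehicle osteoclasts had 4576 CPM of it, 31.3% of their pump UMIs. The annotation lists 2 pseudogenes of Atp6v0c, and how reads shared with them were counted is not known. Atp6v0b, another ring subunit, had 340 and 329 CPM in macrophages and 158 and 112 CPM in tumour cells, and Atp6v0e, a small membrane subunit, 360 and 377 CPM against 165 and 151 CPM.

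The subunits that join V0 to the stalk had isoforms with unlike patterns. Atp6v0d1, the common d subunit, differed most between macrophages and tumour cells of the pump subunits at 5 CPM or more, with 176 CPM in macrophages and 34.5 CPM in tumour cells in WQ-2101 (5.08-fold) and 195 and 31.0 CPM in vehicle (6.29-fold). Atp6v0a1, an a subunit found on lysosomes, had 72.8 and 77.6 CPM in macrophages and 19.1 and 17.2 CPM in tumour cells. Atp6v0a2, the a subunit of Golgi and endosomes, was nearly level, with 22.0 and 25.1 CPM in macrophages and 18.8 and 22.5 CPM in tumour cells. Vehicle osteoclasts had less Atp6v0a1 (10.4 CPM, 0.134-fold the macrophage level) and Atp6v0d1 (145 CPM, 0.746-fold). The alternative d and a isoforms were high in them: Atp6v0d2, which the rule leaves out, was at 1388 CPM against 21.4 CPM in vehicle macrophages, and Tcirg1, the a isoform of the osteoclast pump, whose symbol the rule does not match, at 454 CPM against 88.6 CPM. Neutrophils also carried Atp6v0d2, at 144 CPM in WQ-2101 and 346 CPM in vehicle.

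In the V1 sector, Atp6v1a and Atp6v1b2 form the ATP-splitting head. Macrophages had 206 and 225 CPM of Atp6v1a and 114 and 148 CPM of Atp6v1b2, and tumour cells 48.3 and 49.0 CPM and 45.7 and 45.6 CPM. Atp6v1g1, a stalk subunit, was the highest pump subunit of tumour cells at 310 CPM in WQ-2101 and 311 CPM in vehicle. Macrophages barely exceeded that, at 334 and 365 CPM, and it was 2807 CPM in vehicle osteoclasts, 7.70-fold their macrophage counterpart. Atp6v1d of the central stalk and Atp6v1b2 were likewise 5.41-fold and 6.78-fold higher in osteoclasts than in macrophages. Of 14 pump subunits compared there, 11 were higher in osteoclasts, and the exceptions were Atp6v0a1, Atp6v0d1 and Atp6v0a2.

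Isoforms known from kidney, testis and other specialised cells were near 0. Atp6v1b1, Atp6v0a4, Atp6v1c2, Atp6v1e2 and Atp6v0e2 stayed under 5 CPM in every described type, and Atp6v1g3 did except for 1 UMI in WQ-2101 NK cells. In small gates a count of 0 allows more, such as 20.6 CPM in WQ-2101 neutrophils and 10.2 CPM in WQ-2101 dendritic cells. That limit also holds for Atp6v1fnb and Ctsf, which had no UMI there. Atp6v1g2, a stalk isoform best known from neurons, was at 5.44 and 4.69 CPM in tumour cells and 1.997 and 1.20 CPM in macrophages.

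LAMP1 and LAMP2 are heavily glycosylated proteins that line the lysosome membrane. Lamp1 had 644 and 624 CPM in macrophages and 264 and 275 CPM in tumour cells, and Lamp2 308 and 319 CPM against 132 and 142 CPM. Their sum was 2.40-fold higher in macrophages than in tumour cells in WQ-2101 and 2.26-fold in vehicle.

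For the contrast of libraries, a gene counted as higher or lower when CPM plus 5 differed 1.5-fold or more, among genes with a mean of at least 5 CPM in the cell type. That share of all genes, given for each type, is the level against which the members' counts are read. Log2 ratios are WQ-2101 over vehicle. With 1 library each, mouse, library and treatment cannot be told apart in any difference below.

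In tumour cells, neither the proteases nor the pump passed that fold: 0 of 9 cathepsins, 0 of 15 pump subunits and 0 of 2 LAMPs did, while 1.26% of 10002 genes did. The median log2 ratio was 0.01 for cathepsins and 0.11 for pump subunits, against −0.01 for all genes tested. Ctsl was the lowest ratio of the set in these cells, at −0.29, with 1004 CPM in WQ-2101 and 1228 CPM in vehicle, a CPM ratio of 0.817 (0.811 to 0.824). Atp6v0b was the highest at 0.47, with 158 CPM in WQ-2101 and 112 CPM in vehicle (ratio 1.37 to 1.44). Ctss followed at 0.26, with 21.6 CPM in WQ-2101 and 17.1 CPM in vehicle. Summed macrophage markers in these cells were at 144 and 122 CPM, and the part of macrophage RNA in the Ctss ratio was not tested.

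In macrophages the count was again 0, of 9 cathepsins, 14 pump subunits and 2 LAMPs, with 2.99% of 9407 genes past the fold. Cathepsins had a median log2 ratio of 0.03 and a range of −0.19 for Ctsl to 0.13 for Ctsb. Pump subunits had a median of −0.13 against 0.00 for all genes, and 13 of the 14 were below 0. The lowest were Atp6v1h, a regulatory subunit of V1, at 71.8 CPM in WQ-2101 and 105 CPM in vehicle (log2 ratio −0.51), and Atp6v1b2 at 114 CPM in WQ-2101 and 148 CPM in vehicle (−0.36). Atp6v0b alone was above 0, at 0.05. All 14 were short of the fold, Atp6v1h the nearest to it, and no replicate shows how far macrophages of 2 like-treated tumours would differ. The vehicle library held 101 osteoclasts, with summed pump subunits at 14615 CPM, and the WQ-2101 library 6. Ctsk, an osteoclast gene outside the set, was at 64.2 CPM in vehicle macrophages and 5.67 CPM in those of WQ-2101. The part of osteoclast RNA in the macrophage pump ratios was not tested.

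**Figure D4:**
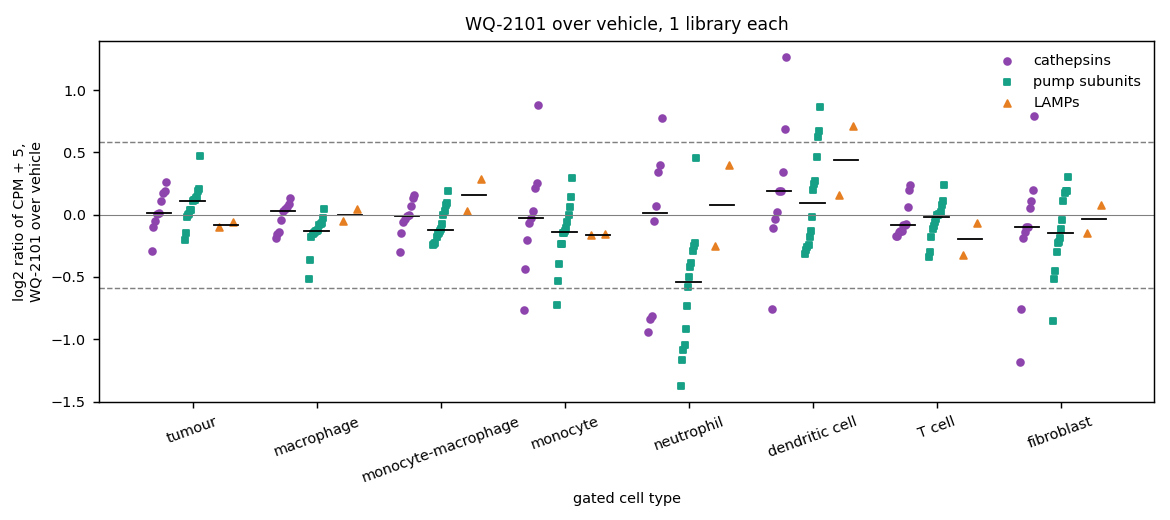
Log2 ratio of CPM + 5, WQ-2101 over vehicle, for each member with a mean of at least 5 CPM, by gated cell type; black bars are medians and dashed lines mark 1.5-fold. Points of tumour cells, macrophages, cells with both marker sets and T cells lie within the lines, and the pump subunits of neutrophils lie mostly below 0, with a median of −0.54.

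Cells with both macrophage and monocyte markers and T cells gave the same count. None of 9 cathepsins and 14 pump subunits passed in cells with both marker sets, where 6.12% of 9192 genes did, and none of 11 cathepsins and 14 pump subunits in T cells, where 5.72% of 9753 genes did. The medians were −0.01 and −0.12 for cathepsins and pump subunits in the mixed-marker cells and −0.08 and −0.02 in T cells. Ctsw had 247 CPM in WQ-2101 T cells and 261 CPM in vehicle T cells (CPM ratio 0.839 to 1.06), and Gzmb, a granzyme that cathepsin C activates, 483 and 530 CPM.

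Monocytes differed in Ctsd. It had 436 CPM in WQ-2101 (329 UMIs) and 746 CPM in vehicle (1412 UMIs), a log2 ratio of −0.77 and a CPM ratio of 0.585 (0.518 to 0.660). Of the 9 cathepsins, Ctsd was lower and Ctso higher, and of 14 pump subunits Atp6v0a2 was lower, where 13.5% of 9202 genes passed the fold in either direction. Ctso rested on 12 UMIs in each library (15.9 and 6.34 CPM) and Atp6v0a2 on 12 and 56 (15.9 and 29.6 CPM). Among genes of at least 100 CPM, where counts are larger, 1 of 8 cathepsins, Ctsd, and 0 of 9 pump subunits passed, against 4.84% of 1652 genes. Ctsl was also below 0, at 321 CPM in WQ-2101 and 435 CPM in vehicle (log2 ratio −0.43), short of the fold. Monocytes of the 2 libraries had a median of 4567 and 6258 UMIs, and summed macrophage markers of 1076 and 1204 CPM, and free RNA was estimated at 21.1% and 28.4% of their UMIs; the part of these in the Ctsd difference was not tested.

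Neutrophils showed the widest differences, in a cell type where 53.8% of 8951 genes passed the fold. Of 14 pump subunits, 6 were lower in WQ-2101 and 0 higher, where 21.3% of all genes were lower. Cathepsins had 3 of 8 lower and 1 higher, where 32.6% of all genes were higher. Among genes of at least 100 CPM, 6 of 12 pump subunits and 3 of 7 cathepsins were lower, where 26.4% of 1518 genes were lower and 47.6% passed in either direction. The pump median was −0.54, while the median of all genes tested was 0.31, and −0.04 among genes of at least 100 CPM. With median-of-ratios scaling in place of total UMIs, 11 of 14 pump subunits were lower, where 27.7% of all genes were lower and 27.2% higher.

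Atp6v1a had 261 CPM in WQ-2101 neutrophils (38 UMIs) and 683 CPM in those of vehicle (158 UMIs), a log2 ratio of −1.37 and a CPM ratio of 0.382 (0.261 to 0.547). Atp6v0c had 996 CPM in WQ-2101 and 2115 CPM in vehicle, a log2 ratio of −1.08 (CPM ratio 0.388 to 0.568). Atp6v1c1 and Atp6v1e1, stalk subunits, had ratios of −1.17 and −1.04, Atp6v0e −0.92 and Atp6v1b2 −0.74. The vehicle neutrophils thus exceeded vehicle macrophages in the summed pump 1.81-fold, and WQ-2101 neutrophils exceeded WQ-2101 macrophages 1.13-fold.

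**Figure D5:**
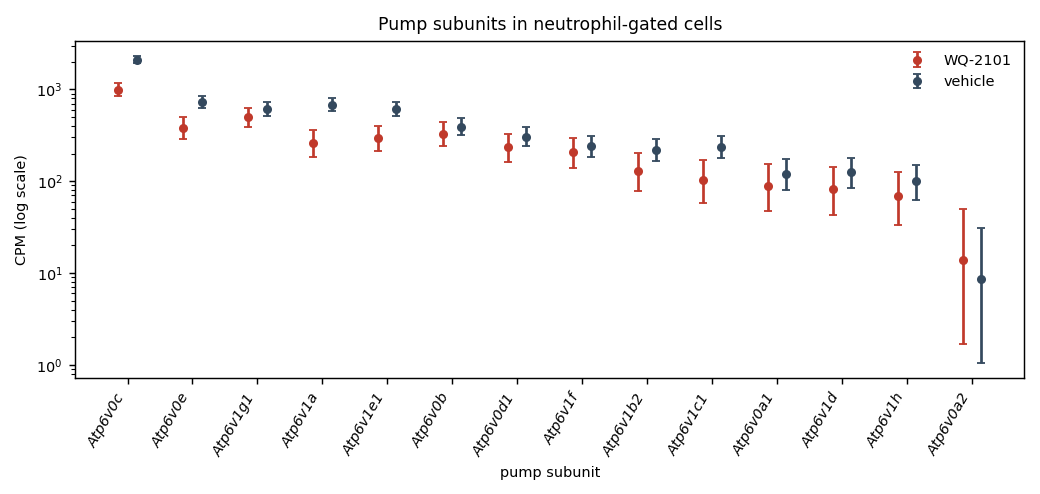
CPM (log axis) of the 14 pump subunits with a mean of at least 5 CPM in neutrophil-gated cells, WQ-2101 left of vehicle, with exact 95% Poisson intervals. Atp6v0c, Atp6v1a, Atp6v1e1, Atp6v1c1 and Atp6v0e are lower in WQ-2101 with intervals that do not meet. The intervals of Atp6v0a2, from 2 UMIs in each library, are wide.

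Among neutrophil cathepsins, Ctsb had 522 CPM in WQ-2101 and 1008 CPM in vehicle (log2 ratio −0.94), Ctsd 522 and 921 CPM (−0.81) and Ctsz 282 and 506 CPM (−0.83). Ctsc was above the fold at 233 CPM in WQ-2101 and 134 CPM in vehicle (0.78), on 34 and 31 UMIs, and turned below 0 under 3 alternatives of gating, the lowest at −1.31. The neutrophils of the libraries differed in other genes too. Camp and Ngp, granule genes of immature neutrophils, were at 4217 and 2994 CPM in WQ-2101 and 0 and 4.32 CPM in vehicle, and S100a8 was at 44117 CPM in WQ-2101 and 15968 CPM in vehicle. Ccl3 was at 2074 CPM in WQ-2101 and 8550 CPM in vehicle. A Camp, Ngp or Ltf UMI was present in 18 of 93 WQ-2101 and 9 of 213 vehicle neutrophils. Without those cells, 5 of 14 pump subunits were lower and 1, Atp6v0a2, higher, with a pump median of −0.31, where 59.9% of 8748 genes passed the fold and 20.2% were lower; Atp6v1a then had 328 CPM in WQ-2101 and 643 CPM in vehicle, and Atp6v0c 1213 and 2078 CPM. Of the 8 cathepsins, Ctsd was lower, Ctsc and Ctss were higher, and Ctsb and Ctsz were short of the fold. Lamp1 was higher, at 470 CPM in WQ-2101 and 290 CPM in vehicle.

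Dendritic cells had more Ctsc in the WQ-2101 library. It was at 414 CPM in WQ-2101 (122 UMIs) and 170 CPM in vehicle (92 UMIs), a log2 ratio of 1.26 and a CPM ratio of 2.44 (1.85 to 3.24). The difference had the same direction in cells over the threshold for conventional dendritic cells (369 and 183 CPM) and in those over the threshold for migratory ones (452 and 157 CPM). Ctsa, Atp6v1h, Atp6v1e1, Atp6v1b2 and Lamp1 were higher too and Ctso lower, making 3 of 9 cathepsins, 3 of 14 pump subunits and 1 of 2 LAMPs, where 31.8% of 9345 genes passed the fold. That share is of the same order as the members' own. Each of these 6 lost the fold in at least 1 alternative: with classes from clusters Atp6v1h had a log2 ratio of 0.13, Atp6v1e1 0.39, Atp6v1b2 0.055, Ctso −0.18 and Ctsa −0.074, and with cells weighted alike Lamp1 had 0.41. Lamp1 had 275 CPM in WQ-2101 and 166 CPM in vehicle (CPM ratio 1.21 to 2.26). Of genes at 100 CPM or more, 1 of 5 cathepsins, Ctsc, and 0 of 7 pump subunits passed, against 13.4% of 1677 genes. Ctso had 1 UMI in WQ-2101 and 5 in vehicle, a CPM ratio of 0.369 (0.00779 to 3.29). With classes from unsupervised clusters in place of gates, Ctsc had a log2 ratio of 0.50.

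Fibroblasts had less Ctsc, at 68.5 CPM in WQ-2101 (29 UMIs) and 162 CPM in vehicle (239 UMIs), a log2 ratio of −1.18 and a CPM ratio of 0.423 (0.277 to 0.623). Ctss (21.3 and 39.3 CPM) was lower and Ctso (21.3 and 10.2 CPM) higher, making 3 of 10 cathepsins, and of 14 pump subunits Atp6v1d (23.6 and 46.8 CPM) was lower. In these cells 24.3% of 10107 genes passed the fold, so the cathepsin count is near the background. Ctsl had a log2 ratio of 0.05 in fibroblasts. Summed macrophage markers in fibroblast-gated cells were at 343 CPM in WQ-2101 and 353 CPM in vehicle, and their part was not tested. With classes from clusters, Ctsc had a log2 ratio of −0.22, Ctss of 1.64, Ctso of 0.25 and Atp6v1d of −0.33.

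Other lysosomal genes were described from 7 lists of known function. In tumour cells 0 of 30 hydrolases outside the cathepsins, 0 of 20 lysosome membrane and lipid-handling genes, 0 of 12 pump partners and assembly factors, 0 of 7 sorting genes and 0 of 15 genes of the MiT transcription factors and their regulators passed the fold, against the same 1.26%. Asah1, an acid ceramidase, had 259 and 277 CPM, and Cd63, a tetraspanin of lysosomes and late endosomes, 596 and 697 CPM. Of 6 cathepsin inhibitors only Serpina3g passed, at 14.96 CPM in WQ-2101 and 7.86 CPM in vehicle. Among 2 substrates measured, Cd74, the invariant chain, was higher, at 129 CPM in WQ-2101 and 57.8 CPM in vehicle. Cd74 was at 5266 and 3896 CPM in macrophages, and tumour-gated cells carried the macrophage markers given above. The part of macrophage RNA in the tumour Cd74 levels was not tested.

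In macrophages the same lists gave 0 of 32 hydrolases, 0 of 21, 0 of 12, 0 of 9 and 0 of 17, against 2.99%. Psap, the saposin precursor, had 1825 CPM in WQ-2101 and 1619 CPM in vehicle, and Lgmn, the asparagine protease that matures several cathepsins, 635 and 786 CPM. Of 4 inhibitors, Cst6 (11.5 and 3.98 CPM) and Serpina3g (29.9 and 17.1 CPM) were higher, and Cstb, a cytosolic inhibitor of cysteine cathepsins, was below the fold at 484 and 658 CPM (log2 ratio −0.44). Mitf, a transcription factor of lysosomal genes, had 123 and 127 CPM, and Tfeb 16.1 and 15.8 CPM. Ctsk, a collagen-cutting cathepsin of osteoclasts that the rule leaves out, was at 5.67 CPM in WQ-2101 macrophages and 64.2 CPM in vehicle ones, beside 6 osteoclasts in the WQ-2101 library and 101 in that of vehicle, whose part in this was not tested.

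Neutrophils had 10 of 30 hydrolases lower and 5 higher, against 53.8% in either direction. Of 11 pump partners, Tcirg1 (48.1 and 104 CPM) and Atp6ap2 (144 and 290 CPM), which binds V-ATPase, were lower, and Wdr7 and Rogdi higher. Of 8 cathepsin inhibitors, 4 were lower: Cstb at 920 CPM in WQ-2101 and 2651 CPM in vehicle, Stfa2l1 at 343 and 1220 CPM, and Stfa1 and Stfa2 with no UMI in WQ-2101 and 225 and 95.1 CPM in vehicle. Stfa3 and Serpinb1a were higher. The stefin A genes are close copies, so their split of reads is uncertain.

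For the other types, hydrolase counts are given beside the share of all genes past the fold in either direction. Monocytes had 3 of 30 higher and 2 lower (13.5% of all genes). Dendritic cells had 4 of 27 higher and 5 lower (31.8%), and fibroblasts 4 of 31 higher and 6 lower (24.3%). T cells had 1 of 29 higher and 1 lower (5.72%), and cells with both marker sets 1 of 32 higher (6.12%). Of 22 lysosome membrane and lipid-handling genes in monocytes, 2 were higher and 3 lower, against the same 13.5%. Other counts of the lists in these types are not given. Cst3, a secreted inhibitor of cysteine cathepsins, was at 14357 CPM in WQ-2101 and 15380 CPM in vehicle dendritic cells, against 1433 and 1371 CPM in macrophages.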

How the data were processed

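The deposited files hold raw UMI counts per gene and cell barcode, which the authors made with Cell Ranger (version 7.2.0 in the file headers); the submitters' processing notes name version 2.2.2 and the build GRCm38. The 2 libraries held 185587327 UMIs (WQ-2101, 18142 barcodes) and 184754398 UMIs (vehicle, 14374 barcodes). Barcodes under 500 UMIs or 300 genes (6 in WQ-2101 and 22 in vehicle) or over 15% mitochondrial UMIs (90 and 139) were removed, as were 752 and 545 that Scrublet in scanpy 1.11.5 called doublets. Cells were gated on summed markers per 10000 UMIs, with 14 marker lists that hold no member; gate thresholds, and the markers dropped from the lists, were set after the data and the members' values had been seen. Counts were summed per gate and library and divided by all UMIs of the gate. Levels are given for gates of at least 30 cells and compared between libraries for at least 50 in each. Ratios are log2 of CPM plus 5 among genes with a mean of at least 5 CPM, and 1.5-fold is the size used for naming a gene as higher or lower. With 1 library per group no test and no p-value was computed. Intervals are exact 95% Poisson intervals for a level and exact conditional binomial intervals for a CPM ratio, computed with scipy 1.17.1; they cover counting error only. Shares of cells with a UMI were compared after thinning each cell to 1000 UMIs, with shallower cells left out. Free RNA was estimated from the markers of other cell types. Gene positions are from GENCODE on GRCm38, and promoter windows from RefSeq on GRCm38.p6. The members and gene lists were chosen with earlier results of these data known. Members were named by rule when among the 5 highest of a family in a cell type, past the fold, or at 5 times their library level or more in a type, and of the lists those past the fold or the highest 2. Isoforms, Ctso, Ctsw sub-gates, Gzmb, Lgmn, Mitf, Tfeb and the neutrophil genes outside the set were named for their roles after their values were seen. The ratio step was run on simulated Poisson counts drawn from the vehicle levels, which hold no spread between animals or libraries. Alternatives were 1 CPM added in place of 5, median-of-ratios scaling, a minimum of 20 CPM and no minimum, mitochondrial and ribosomal genes left out, cells weighted alike, free RNA subtracted, doublets kept, cells of at least 1000 UMIs, a stricter gate, classes from Leiden clusters, and cells with other markers left out.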

Additional observations from a re-analysis of the deposited data

Results flagged for a closer look

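The difference between libraries had opposite directions in different cell types for 4 genes, and in each case the difference between cell types was not tested. Ctsc had a log2 ratio (WQ-2101 over vehicle, CPM plus 5) of 1.26 in dendritic cells and 0.78 in neutrophils and of −1.18 in fibroblasts. Ctso had 0.88 in monocytes and 0.79 in fibroblasts and −0.76 in dendritic cells, on 1 to 15 UMIs per library. In dendritic cells Ctso rested on 1 UMI in WQ-2101 and 5 in vehicle. The counting interval of that ratio, given above, leaves its direction open. Atp6v1e1 had 0.62 in dendritic cells and −1.04 in neutrophils, and Atp6v1b2 0.67 and −0.74. The dendritic cell side of both was short of the fold with classes from clusters, at 0.39 and 0.055, and with cells weighted alike, at 0.51 and 0.34; Ctsc in dendritic cells and fibroblasts was short of it with clusters, at 0.50 and −0.22, and in neutrophils its sign turned under 3 gatings. Ctso had −0.18 in dendritic cells and 0.25 in fibroblasts with clusters, and Atp6v1b2 in neutrophils −0.58 without cells carrying early granule genes. These cell types had the fewest cells compared, and they also had the largest shares of all genes past the fold (13.5% to 53.8%).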

How the results depend on the processing

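Most medians of the ratios between libraries stayed within the median counting interval of their members. The exceptions were the tumour cathepsin median at −0.018 with free RNA subtracted, the tumour pump median at 0.040 with a minimum of 20 CPM and 0.020 with none, and the macrophage medians with classes from clusters, at 0.085 for cathepsins and −0.053 for pump subunits. Summed cathepsins in macrophages over tumour cells, 4.10-fold in WQ-2101 and 3.66-fold in vehicle, became 3.88 and 3.47 without mitochondrial and ribosomal genes, 3.97 and 3.63 with cells weighted alike, 4.84 and 4.17 with free RNA subtracted, 4.05 and 3.62 with doublets kept, 4.54 and 3.97 with a stricter gate, and 3.92 and 3.57 without cells carrying other markers. Clusters gave 4.19 in WQ-2101. The pump sum, 2.48-fold and 2.90-fold, became in the same order 2.35 and 2.75, 2.37 and 2.84, 2.80 and 3.28, 2.45 and 2.87, 2.63 and 3.03, and 2.45 and 2.84, and clusters gave 2.54 and 2.84. The neutrophil pump median lay between −1.04 and −0.31 under its alternatives. The neutrophil cathepsin median, 0.01, ran from −0.89 with clusters to 0.09 without mitochondrial and ribosomal genes. Median-of-ratios scaling shifts all neutrophil ratios by 0.31, the median of all genes there, and puts that pump median at −0.84. In neutrophils, Atp6v0c, Atp6v1a, Atp6v1c1 and Atp6v1e1 were past the fold under 12 of 12 alternatives, and in monocytes Ctsd under 10 of 10. Among these, a minimum of 20 CPM and no minimum cannot change a gene's ratio. For monocytes, leaving out cells with other markers kept the same 140 and 267 cells, so it could not change the Ctsd ratio either. Keeping doublets (141 and 271 monocytes) and a minimum of 1000 UMIs (139 and 266) hardly changed those cells. For neutrophils, keeping doublets left the same 93 and 213 cells, so it could not change their ratios. Ctsc turned round in neutrophils at −0.17 with the stricter gate, −1.31 with clusters and −0.82 without cells carrying other markers. With clusters, Ctsa in dendritic cells was at −0.074 and Ctss in fibroblasts at 1.64. The cause of these changes was not tested. Clusters gave no class of monocytes or of cells with both marker sets, and a minimum of 1000 UMIs left under 50 neutrophils in WQ-2101. The stricter gate left 31 and 46 monocytes and 41 and 49 dendritic cells in WQ-2101 and vehicle. It also left 38 fibroblasts and 47 cells with both marker sets in WQ-2101. All these are under the 50 cells needed, so those values were not computed. Leaving out cells with early granule genes, leaving out cells with other markers, the comparison of neutrophils and of cells with both macrophage and monocyte markers, and the background of genes of at least 100 CPM were chosen after seeing the data. No paired analysis was possible because each group is 1 library. Depth limits the neutrophils most, at a median of 968 UMIs in WQ-2101 and 984 in vehicle.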
